A study of Mus musculus with 2 samples.

Results

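The genes of glycolysis and lactate handling were followed through the dorsal epidermis of newborn mice with and without epidermal Gli2. They were chosen by name, as 33 gene symbols covering glucose and lactate transport, each step from glucose to lactate, and the kinases that gate pyruvate entry into mitochondria. In the deposited count tables these symbols matched 34 of 56694 gene rows, because Aldoa is carried by 2 identifiers. The list is by name, and it was drawn up with earlier results of these data known. Single cells came from back skin at postnatal day 2, with 1 library from control mice and 1 from Gli2EKO mice, in which a K14Cre transgene deletes floxed Gli2 in keratinocytes of the epidermis and its appendages. The labels call the control genotype WT, and the study describes its controls as floxed littermates without Cre, on a C57Bl/6N background. The number of mice behind each library is not given in the sources used here. Because each genotype is 1 library, there is no replicate check: all intervals below cover counting error only, no p-value is given, and animal, library and genotype cannot be told apart.

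Glycolysis splits glucose into pyruvate in the cytosol. Glucose enters through transporters such as Slc2a1 and is held in the cell by hexokinase, and phosphofructokinase makes the committed step, under control of the PFKFB enzymes. Lactate dehydrogenase turns pyruvate into lactate, which leaves or enters through monocarboxylate transporters, whereas pyruvate dehydrogenase kinases (PDKs) restrain its oxidation in mitochondria. Epidermal and hair follicle keratinocytes are known for turning much of their glucose into lactate.

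After the filters on cells, 4456 control and 3093 Gli2EKO cells remained, and no barcode was shared between the libraries. Keratinocytes made up 5627 of these 7549 cells, 3320 in the control and 2307 in Gli2EKO, with a median of 12437 and 12910 UMIs (unique molecular identifiers, each standing for 1 captured transcript) per cell. Clusters were rebuilt without the members among the variable genes and were called X-like only where markers of that type led. This gave interfollicular epidermis (IFE) basal-like and suprabasal-like, matrix/progenitor-like, inner root sheath (IRS)-like, lower outer root sheath (ORS)-like, upper follicle-like, companion layer-like and sebaceous gland (SG)-like cells. Another 5 keratinocyte groups stayed unnamed and are given by number, and these rebuilt names need not match those of the study. The tissue label is epidermis, yet 7 groups of other cells were present, including fibroblast-like, dermal papilla-like, immune-like and melanocyte-like cells, which K14Cre is not known to target. In the Gli2EKO library, 2 barcodes counted with the keratinocytes carried skeletal muscle markers at 15.8% and 14.6% of their UMIs, and results that rest on them are given with and without them.

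Taken as a sum, the members were higher in Gli2EKO keratinocytes. They held 2933 CPM (their UMIs for each 1000000 UMIs of the same cells) in the control and 3945 CPM in Gli2EKO, a log2 ratio of Gli2EKO over control of 0.43 (95% interval 0.42 to 0.44). Gapdh alone, the glyceraldehyde-3-phosphate dehydrogenase, supplied 32.3% of these UMIs. Without Gapdh the ratio was 0.40. The median keratinocyte devoted 0.263% of its UMIs to the members in the control, with quartiles of 0.175% and 0.347%, and 0.357% in Gli2EKO, with quartiles of 0.251% and 0.465%. The spread between cells of a library was thus wider than the shift between the libraries.

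The mix of cells also differed between the libraries. The IFE basal-like group, whose summed level was above that of all keratinocytes in the control (3455 CPM) but not in Gli2EKO (3837 CPM), held 314 control and 482 Gli2EKO cells, whereas the matrix/progenitor-like group held 408 and 159. With the Gli2EKO groups weighted to the control library's share of UMIs in each group, the summed ratio was 0.36. Other measures differed between the libraries in the same cells. The summed level of 10 dissociation stress genes was 4084 CPM in the control and 4838 CPM in Gli2EKO, that of 8 cell division genes was 2046 and 1576 CPM, and ribosomal protein genes had a median log2 ratio of 0.15. Their part in the members' difference was not tested. Within groups the stress genes differed in both directions: they were at 9018 CPM in the control and 8732 CPM in Gli2EKO in IFE basal-like cells, and at 1619 and 2399 CPM in unnamed group 9, where 5 of 9 were higher by a log2 ratio of 0.5 (11.2% of all genes). In upper follicle-like cells, where the summed members differed most among the named groups, the stress genes were at 1343 and 1140 CPM and the cell division genes at 652 and 889 CPM, with 4 of 8 of the latter higher by 0.5 (8.67% of all genes) and a median of 0.52. Their part in the difference there was not tested.

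**Figure D1:**
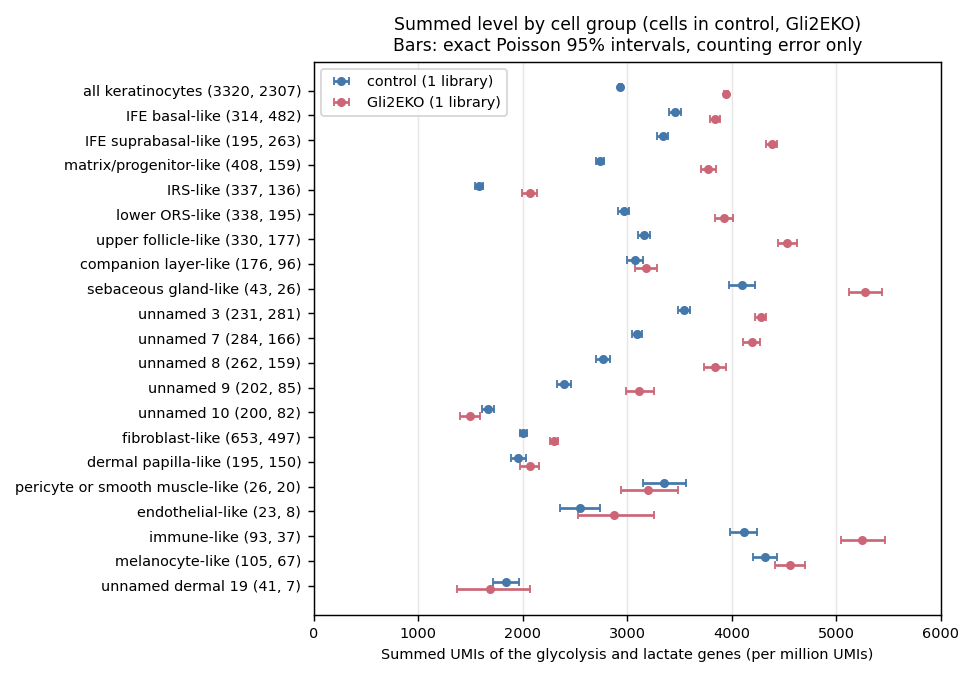
Summed level of the glycolysis and lactate genes in CPM for each group of cells, with the cell numbers in brackets; each point is 1 library and bars are exact Poisson 95% intervals. The Gli2EKO points lie to the right in most keratinocyte groups, by the widest step in upper follicle-like cells (3162 and 4532 CPM), and to the left in unnamed group 10 (1669 and 1492 CPM).

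Gene by gene, all 34 rows had at least 20 UMIs in keratinocytes over both libraries. Of these, 7 were higher in Gli2EKO by a log2 ratio of at least 0.5 (1.41-fold), against 7.37% of all 18489 genes with that many UMIs, and 3 were lower by as much, against 15.7%. The members' median log2 ratio was 0.27, beside a median of -0.14 over all genes. The 7 were Slc2a1, Pfkl, Pfkfb4, Aldoa, Slc16a3, Pgam2 and Eno3. Without the muscle-marked barcodes 6 were higher, since Eno3 was not, and Pgam2 then rested on 9 and 11 UMIs. Without the cell richest in it, Pfkfb4 fell short of the threshold, at 0.38. The 3 lower members were Pfkfb1, Pfkfb2 and Pdk4, all regulatory kinases at under 5 CPM. Weighted to the control groups, Slc2a1 (0.18), Pfkl (0.34), Aldoa (0.42), Slc16a3 (0.35) and Pfkfb1 (-0.44) fell short of the threshold. Pfkfb4 (0.53), Pfkfb2 (-0.82) and Pdk4 (-0.98) stayed past it, as did Pgam2 and Eno3 with the muscle-marked barcodes kept. Before weighting, Hk1 (0.496) and the second Aldoa identifier (20 and 10 UMIs) were just short of the threshold. The abundant members stood together: 11 had a mean of at least 50 CPM, all 11 had ratios above 0, and their median was 0.44, beside -0.09 for the 3740 genes of that abundance. The limit of 50 CPM was chosen after the values were seen.

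**Figure D2:**
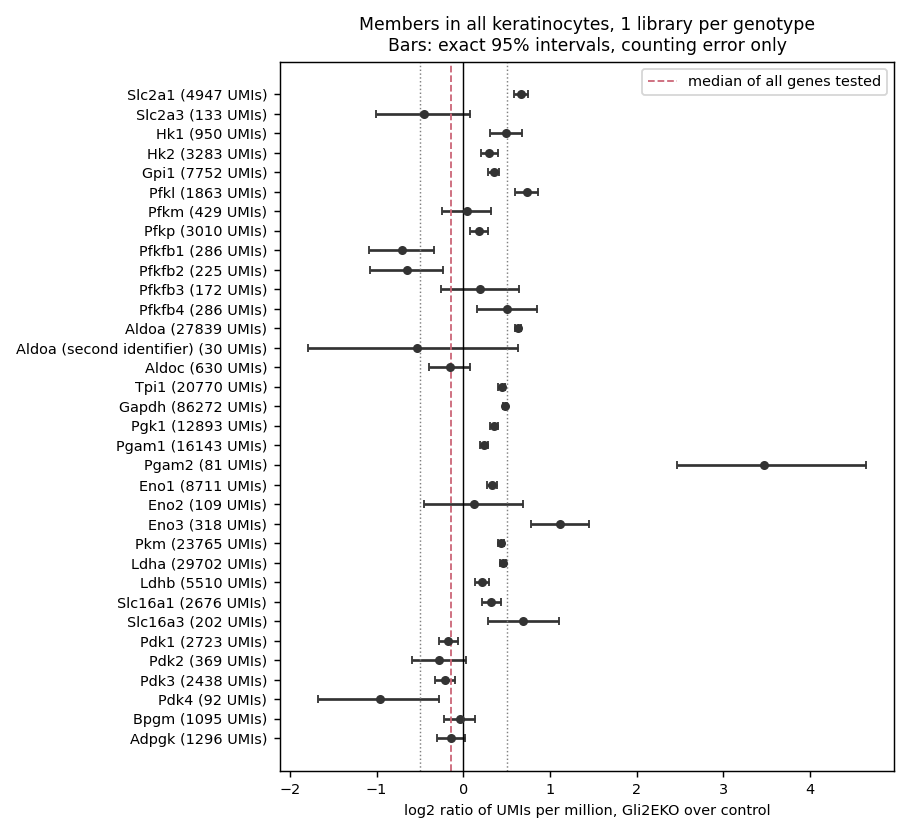
Log2 ratio of Gli2EKO over control for each member row in all keratinocytes, with exact 95% intervals for counting error, dotted lines at the 0.5 threshold and a dashed line at the median of all genes tested (-0.14). The members with a mean of at least 50 CPM sit between 0.22 (Ldhb) and 0.66 (Slc2a1), while the regulatory kinases spread to both sides and Pgam2 stands far out at 3.47.

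At the entry of glucose stood the facilitative transporter Slc2a1 (chromosome 4, 118965908 to 118996365, plus strand, GRCm39) and the high-affinity transporter Slc2a3. Of the UMIs of this pair Slc2a1 carried 96.4% in the control and 98.3% in Gli2EKO. Of glucose transporters outside the list, Slc2a8 was at 8.44 and 10.3 CPM in all keratinocytes. Slc2a4 was at 2.60 and 3.05 CPM and Slc5a1 at 1.93 and 2.37 CPM. Slc2a1 measured 49.9 CPM in control and 79.2 CPM in Gli2EKO keratinocytes, a log2 ratio of 0.66 (0.58 to 0.75). IFE basal-like cells had the highest Slc2a1 level in both libraries, 139 and 153 CPM, followed by IFE suprabasal-like cells at 102 and 113 CPM. Matrix/progenitor-like cells had 9.32 and 12.1 CPM and IRS-like cells 7.5 and 10.8 CPM, with intervals that overlap between the libraries and between these groups. Weighted to the control groups, the Slc2a1 ratio was 0.18, so most of the pooled ratio went with the mix of groups. The 2 groups whose interval excluded 0 were the dividing unnamed groups 3 (0.28) and 7 (0.78). Slc2a3 was at 1.89 and 1.38 CPM (-0.45, interval -1.0 to 0.08) and was highest among keratinocytes in unnamed group 9.

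Hexokinase, which phosphorylates glucose on entry, was mostly Hk2, the inducible form, at 78.7% of hexokinase UMIs in the control and 76.3% in Gli2EKO. Hk2 measured 37.6 and 46.3 CPM in all keratinocytes (0.30, interval 0.20 to 0.40). It was highest in IFE suprabasal-like cells, at 72.6 CPM in the control and 90.7 CPM in Gli2EKO. In upper follicle-like cells it went the other way, at 37.9 and 27.3 CPM. Hk1, the constitutive form, was at 10.2 and 14.4 CPM (0.50, interval 0.31 to 0.68). Weighted to the control groups the ratios were smaller, 0.08 for Hk2 and 0.19 for Hk1. The Hk1 share of hexokinase UMIs in the control was 3.26% in matrix/progenitor-like cells and 31.9% in IFE basal-like cells. In fibroblast-like cells Hk1 was the major form, at 55.7% and 63.5%. The ADP-dependent glucokinase Adpgk was nearly level between the libraries, at 17.0 and 15.4 CPM (-0.14, interval -0.30 to 0.02). Gpi1, the glucose-6-phosphate isomerase, had 87.4 and 111 CPM (0.35, interval 0.28 to 0.41), with intervals above 0 in 6 of 20 groups and below 0 in none.

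**Figure D3:**
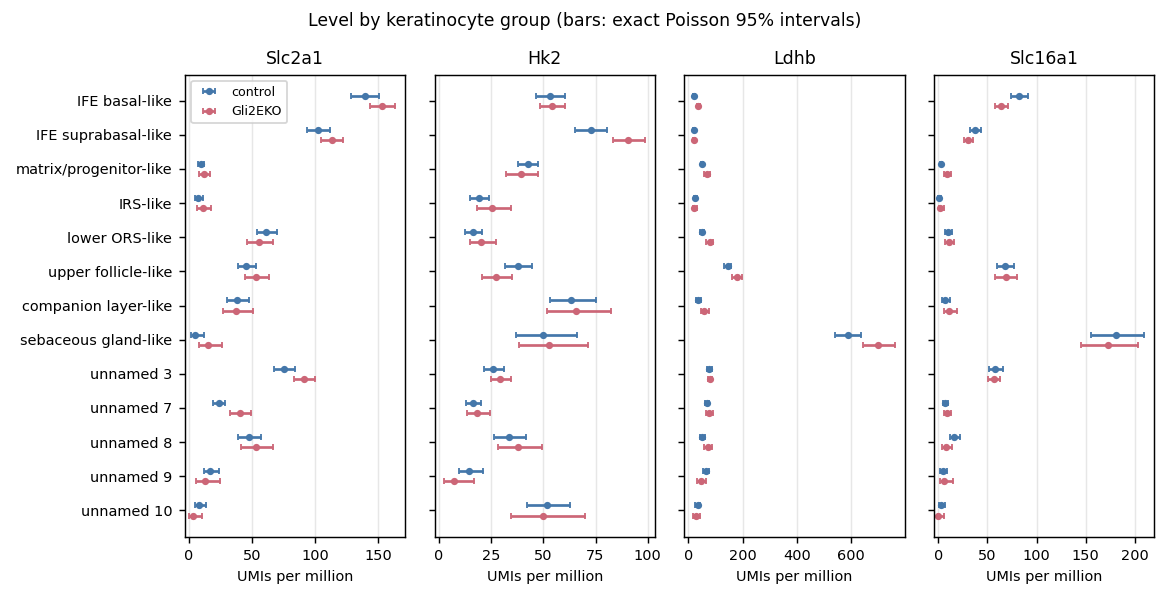
Level of Slc2a1, Hk2, Ldhb and Slc16a1 in CPM for each keratinocyte group, 1 point per library with exact Poisson 95% intervals. Slc2a1 peaks in IFE basal-like cells (139 and 153 CPM), Hk2 in IFE suprabasal-like cells (72.6 and 90.7 CPM), and Ldhb (588 and 699.7 CPM) and Slc16a1 (181 and 172 CPM) in SG-like cells, with the same peak in both libraries.

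The phosphofructokinase subunits, which commit the sugar to glycolysis, differed in their ratios. The platelet-type subunit Pfkp was the most abundant, at 35.9 CPM in the control and 40.6 CPM in Gli2EKO (0.18, interval 0.07 to 0.28). The liver-type subunit Pfkl was at 18.3 and 30.5 CPM (0.73, interval 0.60 to 0.86), and its share of phosphofructokinase UMIs was 30.8% in the control and 39.8% in Gli2EKO. Weighted to the control groups the ratios were 0.14 for Pfkp and 0.34 for Pfkl, so part of this contrast went with the mix of groups. In IFE basal-like cells the pair differed in opposite directions: Pfkp was at 59.7 and 40.7 CPM (-0.55, interval -0.81 to -0.30) and Pfkl at 36.0 and 45.2 CPM (0.33, interval 0.04 to 0.62). There Pfkp supplied 59.4% of the family's UMIs in the control and 44.8% in Gli2EKO, and Pfkl 35.8% and 49.8%. Companion layer-like cells had the highest Pfkp level among keratinocytes in both libraries, 114 and 108 CPM. The muscle-type subunit Pfkm was level in all keratinocytes, at 5.33 and 5.48 CPM. In unnamed group 8, led by Adamts19 and Nlgn1, Pfkm measured 6.60 CPM (16 UMIs in 16 cells) in the control and 22.1 CPM (31 UMIs in 26 cells) in Gli2EKO, a ratio of 1.74 (0.83 to 2.71). It was 1.77 without the muscle-marked barcode of that group, which held no Pfkm UMI.

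The PFKFB enzymes set the level of fructose-2,6-bisphosphate, the activator of phosphofructokinase, and all 4 were sparse. Pfkfb1 had 198 UMIs in the control and 88 in Gli2EKO (4.29 and 2.63 CPM, ratio -0.70, interval -1.08 to -0.34), and it was lower in matrix/progenitor-like cells (5.45 and 1.10 CPM) and IRS-like cells (13.9 and 6.36 CPM). Pfkfb2 had 154 and 71 UMIs (3.34 and 2.13 CPM, ratio -0.65, interval -1.08 to -0.24). Pfkfb4 went the other way, with 141 and 145 UMIs (3.06 and 4.34 CPM, ratio 0.51, interval 0.16 to 0.85). Pfkfb4 supplied 24.0% of PFKFB UMIs in the control and 38.0% in Gli2EKO, and Pfkfb1 33.7% and 23.0%. Pfkfb3 did not separate at this depth, at 2.04 and 2.34 CPM (0.20, interval -0.26 to 0.64).

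The enzymes that split and oxidise the sugar carried most of the transcripts. Gapdh (chromosome 6, 125135289 to 125143518, minus strand) measured 929.8 CPM in the control and 1299 CPM in Gli2EKO, a ratio of 0.48 (0.46 to 0.50), and kept that ratio after weighting (0.48). Its interval lay above 0 in 16 of 20 groups, with 0.70 in upper follicle-like, 0.50 in lower ORS-like and 0.35 in IFE basal-like cells. The groups without such an interval included unnamed group 10 (-0.08) and dermal papilla-like cells (0.05). Aldoa, the main aldolase (chromosome 7, 126393822 to 126399923, minus strand), was at 285 and 440.0 CPM, a ratio of 0.63 (0.59 to 0.66). Aldoa was level in IFE basal-like cells (493 and 499 CPM) and companion layer-like cells (380.0 and 384 CPM), and among the named groups it differed most in matrix/progenitor-like cells (84.1 and 182 CPM, ratio 1.11) and IRS-like cells (102 and 183 CPM, ratio 0.84). The second Aldoa identifier overlaps the first on the same strand and held 30 UMIs, so it may share reads with it. Aldoc, a second aldolase, was at 8.28 and 7.43 CPM (-0.16, interval -0.39 to 0.08).

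The later steps of the pathway were higher in Gli2EKO by smaller or similar ratios. Tpi1, the triose phosphate isomerase, was at 227 and 308 CPM (0.44, interval 0.40 to 0.48). Pgk1, the phosphoglycerate kinase, was at 145 and 186 CPM (0.35, interval 0.30 to 0.40). Pgam1, the phosphoglycerate mutase, was at 189 and 223 CPM (0.24, interval 0.20 to 0.29). Pgam1 had its highest level in matrix/progenitor-like cells in both libraries, 286 and 334 CPM, a group low in Aldoa. Eno1, the ubiquitous enolase, was at 98.8 and 124 CPM (0.33, interval 0.27 to 0.39), and Pkm, the pyruvate kinase that ends the pathway, at 260.1 and 352 CPM (0.44, interval 0.40 to 0.47). The neuronal enolase Eno2 stayed at 1.32 and 1.44 CPM. Bpgm, which diverts a glycolytic intermediate to 2,3-bisphosphoglycerate, was level in all keratinocytes at 13.9 and 13.5 CPM, but at 0.23 weighted to the control groups. Of the 16 groups with at least 20 Bpgm UMIs, 7 were higher by 0.5 and 2 lower. Bpgm was lower in IFE suprabasal-like (10.1 and 5.62 CPM) and higher in IRS-like cells (25.01 and 36.9 CPM, ratio 0.57). Without the cell richest in it, the IRS-like ratio was 0.34.

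The muscle isoforms depended on the 2 barcodes with skeletal muscle markers. Pgam2, the muscle mutase, had 9 UMIs in the control and 72 in Gli2EKO, of which 42 and 19 came from these barcodes. Without them it had 9 and 11 UMIs, a ratio of 0.76 (-0.65 to 2.21) in place of 3.47. Eno3, the muscle enolase, had 124 and 194 UMIs, 86 and 16 of them in the same barcodes, and its ratio was 0.04 without them (-0.37 to 0.44) in place of 1.11. Aldoa was affected in the group that held the first of these barcodes: in unnamed group 8 its ratio was 0.57 with it and 0.06 without it, and the summed members there went from 0.47 to 0.31. Its count of members higher by 0.5, 8 of 26 with the barcode, was 4 of 24 without it, where 8.79% of all genes were higher. Over all keratinocytes Aldoa stayed at 0.61 and the sum at 0.42 without them.

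Promoter windows from RefSeq (250 bases before to 50 after a start, build GRCm38.p6) were found for 32 of the 33 symbols. The core letters of the hypoxia response element, ACGTG on either strand, were in at least 1 window of 18 of the 32 genes (56.2%), beside 21.8% of the 27025 genes in the table. By window this was 43.1% of 51, beside 19.6% of all 32851, and overlapping windows of a gene can count the same match again. The E-box CACGTG, which contains ACGTG and is bound by the MYC and USF families, was in 6 of the 32 genes (18.8%), beside 8.09%. A window each is shown for Gapdh, Ldha and Aldoa, the members with most UMIs, with ACGTG or its complement CACGT in capitals where found; a match is only a run of letters, and no binding was measured.
Gapdh, chr6:125165724-125166023, minus strand: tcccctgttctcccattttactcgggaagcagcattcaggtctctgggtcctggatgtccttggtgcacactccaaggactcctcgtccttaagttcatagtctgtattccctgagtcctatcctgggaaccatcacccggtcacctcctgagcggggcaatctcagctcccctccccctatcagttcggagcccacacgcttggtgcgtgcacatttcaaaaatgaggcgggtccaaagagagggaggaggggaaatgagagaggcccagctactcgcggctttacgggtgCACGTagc
Ldha, chr7:46845554-46845853, plus strand: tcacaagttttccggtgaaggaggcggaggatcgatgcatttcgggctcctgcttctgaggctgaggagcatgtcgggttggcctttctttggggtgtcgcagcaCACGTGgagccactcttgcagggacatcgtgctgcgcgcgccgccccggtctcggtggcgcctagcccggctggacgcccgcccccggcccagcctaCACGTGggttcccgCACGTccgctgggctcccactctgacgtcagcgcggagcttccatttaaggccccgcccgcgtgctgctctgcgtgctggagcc
Aldoa, chr7:126799129-126799428, minus strand: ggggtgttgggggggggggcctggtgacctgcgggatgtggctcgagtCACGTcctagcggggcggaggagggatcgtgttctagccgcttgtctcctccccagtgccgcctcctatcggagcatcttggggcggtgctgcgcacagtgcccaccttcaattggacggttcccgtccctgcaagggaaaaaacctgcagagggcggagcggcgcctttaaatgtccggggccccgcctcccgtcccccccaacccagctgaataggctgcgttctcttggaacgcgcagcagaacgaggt
The Ldha window held 2 E-boxes and a separate match, the Aldoa window 1 match far upstream, and the Gapdh window 1 match after its start. The other Ldha window held 0 matches. An Aldoa window overlapping the one shown held the same match, and the Aldoa window further upstream held 0. Among the members higher in Gli2EKO no window of Gpi1, Eno1, Tpi1, Pfkl, Pfkfb4, Ldhb or Pfkp held one. Nor did those of Eno3 and Pgam2, whose ratios depended on the muscle-marked barcodes. These coordinates are on the older build, unlike the gene positions given above. The letters were also in windows of Pfkfb2 and Pdk3, which were lower in Gli2EKO. They were in windows of Pdk2, Aldoc and Adpgk too, whose ratios were below 0 with intervals that included 0. No window of Pfkfb1, Pdk1 or Pdk4, also lower, held them.

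At the lactate end, Ldha, the form that favours lactate production (chromosome 7, 46490899 to 46505061, plus strand), measured 323 CPM in the control and 444 CPM in Gli2EKO (0.46, interval 0.43 to 0.49). Its interval lay above 0 in 13 of 20 groups, most in IRS-like cells (189 and 297 CPM, ratio 0.65), and below 0 in unnamed group 10 (215 and 163 CPM, ratio -0.40). Ldhb, the form associated with lactate use, was at 64.9 and 75.4 CPM (0.22, interval 0.14 to 0.29). SG-like cells were set apart from all other keratinocytes in both libraries by Ldhb, at 588 and 699.7 CPM, with the next group at 144 and 178 CPM. There Ldha was 40.5% of lactate dehydrogenase UMIs in the control and 45.6% in Gli2EKO, against 83.3% and 85.5% in all keratinocytes. In IFE basal-like cells Ldhb was low but differed, at 19.8 and 36.5 CPM (0.88, interval 0.52 to 1.25).

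Of the lactate transporters in the list, Slc16a1, the widely used monocarboxylate transporter (chromosome 3, 104545811 to 104565780, plus strand), was at 30.4 and 38.1 CPM in all keratinocytes (0.33, interval 0.21 to 0.44). Within groups the direction varied. Weighted to the control groups the ratio was -0.09. Matrix/progenitor-like cells were higher in Gli2EKO from a low level, at 2.72 and 9.15 CPM (1.75, interval 0.83 to 2.69), whereas IFE basal-like cells, the second richest in the control, were lower in Gli2EKO, at 82.4 and 63.8 CPM (-0.37, interval -0.58 to -0.16). SG-like cells had the highest Slc16a1 level, 181 and 172 CPM, with 43 and 26 cells behind them. Slc16a3, the exporter of lactate in glycolytic cells, was sparse at 2.02 and 3.26 CPM (0.69, interval 0.28 to 1.11). In immune-like cells Slc16a3 was the larger part of the pair, 54.1% of 37 UMIs in the control and 85.0% of 20 in Gli2EKO. The monocarboxylate transporter Slc16a7, outside the list, was more abundant than both in all keratinocytes, at 167 and 89.0 CPM (-0.91, interval -0.97 to -0.85). Its ratio was -0.18 in unnamed group 9, where its level was highest.

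The PDKs, which inactivate pyruvate dehydrogenase, did not share the higher level of the enzymes. Pdk1 was at 35.9 and 31.9 CPM (-0.17, interval -0.29 to -0.06), Pdk3 at 32.5 and 28.1 CPM (-0.21, interval -0.33 to -0.09), and Pdk2 at 5.01 and 4.13 CPM (-0.28, interval -0.59 to 0.03). These intervals all include -0.14, the median ratio over all genes in these cells. Pdk4 had 67 UMIs in the control and 25 in Gli2EKO (1.45 and 0.75 CPM, ratio -0.96, interval -1.68 to -0.27). Weighted to the control groups Pdk3 (0.00) and Pdk2 (0.01) were level, Pdk1 stayed at -0.18 and Pdk4 at -0.98. The proportions within the family were close in both libraries: Pdk1 supplied 48.0% and 49.1% of PDK UMIs and Pdk3 43.4% and 43.3%.

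Across the named keratinocyte groups, 12 of 26 members counted in upper follicle-like cells were higher in Gli2EKO by at least 0.5, where 8.67% of all genes were, and 3 were lower, where 15.7% were. Without the muscle-marked barcode of that group 9 of 25 were higher (8.60% of all genes), Pgam2, Eno3 and Aldoa (0.47) being lost, and the summed ratio was 0.50 in place of 0.52. In matrix/progenitor-like cells 11 of 27 were higher (9.13% of all genes) and 3 lower (12.5%), with Gpi1 (0.51) and Ldha (0.50) at the edge of the threshold. The median member ratio was 0.37 in upper follicle-like and 0.45 in matrix/progenitor-like cells, beside -0.05 and -0.06 for all genes. IFE basal-like cells were nearly level: 3 of 29 members were higher (7.70% of all genes) and 2 lower (8.67%), and the median was 0.05. Their sum was at 3455 and 3837 CPM (0.15, interval 0.12 to 0.18), mostly through Gapdh. The 3 higher members there were Ldhb, Slc16a3 and Pfkfb3, and the lower ones Pfkp and Pfkfb1. The suprabasal group differed more in its sum, at 3339 and 4382 CPM (0.39, interval 0.36 to 0.42), with Pkm at 320 and 467 CPM and Ldha at 471 and 624 CPM. Of its 26 members counted, 3 were higher (5.85% of all genes), Pkm, Aldoc and Pfkfb4, and 3 lower (13.8%), Bpgm, Pfkfb2 and Pfkfb3. Lower ORS-like cells had 2964 and 3926 CPM (0.41, interval 0.36 to 0.45), with 5 of 25 members higher (6.26% of all genes) and 0 lower (10.4%). SG-like cells had the highest sum among keratinocytes, 4092 and 5277 CPM (0.37, interval 0.30 to 0.43). There Gapdh and Ldha were the 2 of 17 members higher (8.42% of all genes), and Pdk1 and Adpgk the 2 lower (30.8%).

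IRS-like cells had the lowest sum among the named groups, 1578 and 2066 CPM (0.39, interval 0.33 to 0.45), with 6 of 22 members higher (9.70% of all genes) and 3 lower (18.9%). Ribosomal protein genes in these cells had a median ratio of 0.47, larger than in any other keratinocyte group, and its part in the members' difference was not tested. Companion layer-like cells did not separate, at 3072 and 3180 CPM (0.05, interval -0.01 to 0.11), with 3 of 22 members higher (9.62% of all genes) and 3 lower (15.0%). Unnamed group 10, led by the hair shaft keratin Krt35 and S100a3 and by Gpnmb, had the opposite direction, at 1669 and 1492 CPM (-0.16, interval -0.27 to -0.06), in 200 control and 82 Gli2EKO cells. Of its 10 members at 50 CPM or more only 2 had ratios above 0. Bpgm alone of 16 was higher by 0.5 (12.2% of all genes), and Aldoc and Pdk1 were lower (13.5%). The other unnamed groups were higher in Gli2EKO in their sums, by 0.27 in group 3, 0.44 in group 7, 0.47 in group 8 and 0.38 in group 9. In group 9 the median cell differed little, with 0.191% of its UMIs from members in the control and 0.205% in Gli2EKO. Its quartiles were 0.0848% and 0.296% in the control and 0.0745% and 0.389% in Gli2EKO. Group 3 had 1 of 27 members higher (5.71% of all genes) and 3 lower (14.0%), and group 7 had 5 of 25 higher (6.55%) and 0 lower (11.3%). Group 8 had 8 of 26 higher (8.89%) and 2 lower (10.8%), with a sum at 0.31 and 4 of 24 higher without its muscle-marked barcode, and group 9 had 6 of 21 higher (11.2%) and 3 lower (14.4%).

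**Figure D4:**
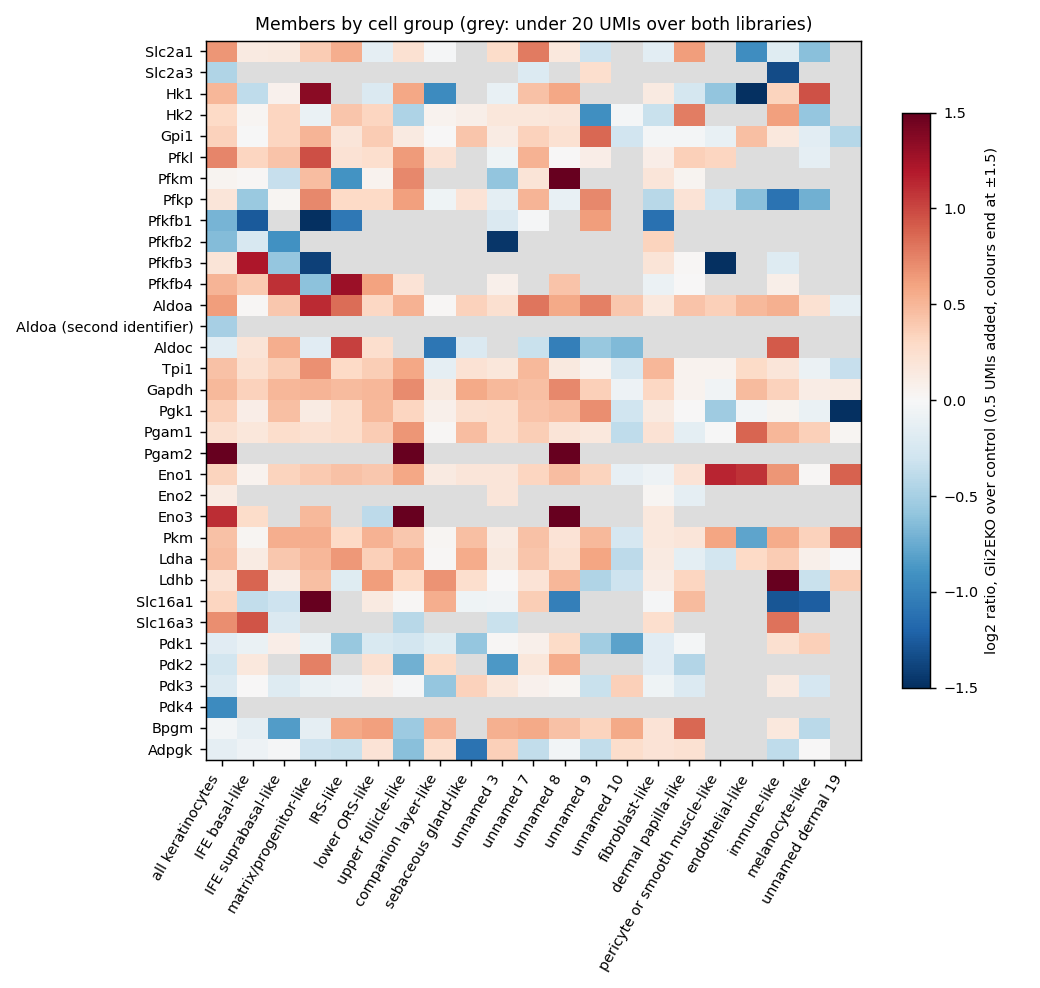
Log2 ratio of Gli2EKO over control for each member row (vertical) in each group of cells (horizontal), with 0.5 UMIs added, red for higher and blue for lower in Gli2EKO, and grey where both libraries together held under 20 UMIs. Aldoa, Tpi1, Gapdh, Pgk1, Pgam1, Eno1, Pkm and Ldha are red across most keratinocyte groups and pale in IFE basal-like and companion layer-like cells, whereas Pfkp, Pfkfb1 and Slc16a1 hold both colours.

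In the groups other than keratinocytes, in which the K14 promoter is not known to act, the summed ratios ran from -0.12 to 0.35, beside -0.16 to 0.52 in the keratinocyte groups. Fibroblast-like cells had 2005 CPM in the control and 2298 CPM in Gli2EKO (0.20, interval 0.16 to 0.23), with Gapdh at 598 and 743 CPM and Tpi1 at 134 and 189 CPM, and 0 of 29 members higher by 0.5, where 7.97% of all genes were. The 1 lower member was Pfkfb1 (8.82% of all genes). Dermal papilla-like cells had 1957 and 2063 CPM (0.08, interval -0.0036 to 0.157), with 3 of 25 members higher (10.5% of all genes), Bpgm, Hk2 and Slc2a1, and 0 lower (11.7%). Melanocyte-like cells had 4316 and 4554 CPM (0.08, interval 0.02 to 0.14), with 1 of 20 members higher (11.8%) and 4 lower (16.5%). Immune-like cells were at 4112 and 5250 CPM (0.35, interval 0.28 to 0.43), in 93 and 37 cells that joined a Cd74-led and a Cd3g-led cluster. They had 7 of 24 members higher (14.9%), among them Hk2, Eno1 and Pkm, and 3 lower (23.3%), Pfkp, Slc2a3 and Slc16a1. A single Gli2EKO cell held 50 of the 67 Hk2 UMIs, and without it the Hk2 ratio was -1.28 in place of 0.62. In the 3 smallest groups few members could be counted: 2 of 13 were higher (17.4%) and 3 lower (21.5%) in pericyte or smooth muscle-like cells, 2 of 12 higher (26.0%) and 4 lower (28.3%) in endothelial-like cells. In the unnamed group among these cells 2 of 10 were higher (26.2%) and 1 lower (32.7%). The difference between these cells and keratinocytes was not tested, for want of replicate libraries.

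Neighbouring pathways were set beside the members in all keratinocytes, where 7.37% of all genes were higher by 0.5 and 15.7% lower. Of 9 genes for pyruvate entry and oxidation 0 were higher and 1, the phosphatase Pdp2 (6.57 and 4.01 CPM), was lower by 0.5. Their median was -0.22, beside -0.14 over all genes. By group their median was 0.21 in upper follicle-like, 0.01 in matrix/progenitor-like and -0.01 in lower ORS-like cells. It was -0.12 in IFE basal-like and -0.21 in companion layer-like cells. The pentose phosphate genes had a median of 0.08 and 0 of 7 past the threshold in either direction, and so did the 7 glycogen genes found, at -0.18. The serine branch, which starts from the 3-phosphoglycerate that Pgk1 makes, had a median of 0.35 over 5 genes, with Psat1 at 66.7 and 88.8 CPM and Phgdh at 151 and 194 CPM, and 0 past the threshold. Within groups its median was 0.39 in upper follicle-like and 0.28 in IFE basal-like cells, 0.00 in matrix/progenitor-like and companion layer-like cells, and -0.30 in SG-like cells and -0.39 in unnamed group 10. Among 15 other genes of the hypoxia response the median was -0.02 and 0 were past the threshold. The largest were Higd1a (155 and 215 CPM) and Ankrd37 (5.55 and 7.55 CPM), while Vegfa, Egln3 and Bnip3 had ratios of 0.14, -0.13 and -0.08. Of the regulators, Hif1a was at 122 and 103 CPM (-0.24), Arnt, its partner, at 48.5 and 37.3 CPM (-0.38), and Myc at 30.7 and 39.0 CPM (0.34).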

How the data were processed

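Gene by barcode UMI counts, whole numbers deposited by the authors, came from Cell Ranger 9.0.1 on GRCm39 with GENCODE M30, from a 10x 3′ v4 polyA library with on-chip multiplexing, 1 per genotype. Members and lists were chosen with earlier results of these data known. Cells with more than 1000 and fewer than 8000 genes and under 15% mitochondrial UMIs were kept. Scrublet in scanpy 1.11.5 stood in for the scDblFinder of the study, and the 8% highest scores in each library were removed. Seurat 5.3.0 in R 4.3.3, with a rewritten Harmony step, clustered all cells and then keratinocytes (2000 variable genes without members, 20 components, resolution 0.5). Clusters were named from fixed markers, and guards leaving tied or mixed clusters unnamed were added once values had been seen. The control library held 71021773 UMIs over 6326 barcodes and the Gli2EKO library 48866478 over 4296.

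UMIs were summed by group and library. Levels are CPM with exact Poisson intervals, ratios have exact conditional binomial intervals and shares Clopper-Pearson intervals, all at 95% and for counting error only. UMIs count molecules at the transcript end and are not divided by length. Medians and counts past a log2 ratio of 0.5 required 20 or more UMIs in the libraries together, and 0.5 UMIs were added to each count. A single library for each genotype leaves no replicates, so nothing was tested. All members were accounted for. From each other list the 2 genes with the largest ratio in size were named, among those with 50 or more UMIs together and 3 in each library. Vegfa, Egln3, Bnip3, Hif1a, Myc, Slc2a8, Slc2a4 and Slc5a1 were named beside them after their values were seen. Gli2 itself is read at its 3′ end and does not check the deletion, so it is not used here. The scripts were tested on simulated data. Alternatives were TMM scaling (edgeR 4.0.16), scaling to nuclear genes, other filters, resolutions, UMIs added, cell weights, no doublet removal and no integration.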

Additional observations from a re-analysis of the deposited data

Results flagged for a closer look

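Some members had opposite directions in different groups of cells, each with at least 50 cells and an interval away from 0, and none of these differences between groups was tested, since each genotype is 1 library. The summed members had a log2 ratio of Gli2EKO over control of -0.16 in unnamed group 10 and 0.52 in upper follicle-like cells. Of the enzymes of that sum, Pgam1 was at -0.38 in unnamed group 10 and 0.66 in upper follicle-like cells, and Ldha at -0.40 in unnamed group 10 and 0.65 in IRS-like cells. Hk2 was at 0.32 in IFE suprabasal-like and -0.47 in upper follicle-like cells. Pfkp was at 0.72 in matrix/progenitor-like and -0.55 in IFE basal-like cells. Aldoc was at 0.56 in IFE suprabasal-like cells and -1.07 in unnamed group 8. Bpgm was at 0.86 in dermal papilla-like and -0.85 in IFE suprabasal-like cells.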

How the results depend on the processing

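The summed log2 ratio in all keratinocytes, 0.43 as reported, was 0.44 without doublet removal, 0.54 with TMM scaling, which shifts all keratinocyte ratios by 0.12, and 0.40 with Gapdh left out, a choice made after the data were seen. The ratio weighted to the control groups, 0.36, was 0.40 with TMM scaling, 0.34 with every cell weighted equally and 0.30 with Gapdh left out. With TMM scaling 12 members were higher by 0.5 and 3 lower, in place of 7 and 3, where 9.93% of all genes were higher and 11.3% lower. The muscle-marked barcodes and a limit of 5000 to 20000 UMIs per cell were also added after the data were seen. Of 272 ratios of single members under alternatives, 253 stayed within their counting spread and 19 moved. Bpgm, at -0.04, crossed 0 with TMM scaling (0.07) and with every cell weighted equally (0.06), and no other member did. Of 28 summed levels in groups 19 moved, and of 4 isoform shares 0. Leaving out, in the library where a member was higher, the cell with most of its UMIs, also added after the data were seen, took 40 of the 128 members past 0.5 within groups below it, and 5 crossed 0: Pfkfb4 in IRS-like, Slc16a1 in companion layer-like, Pgam2 in unnamed group 8, Pgam1 in endothelial-like and Hk2 in immune-like cells. The median ratios of the 8 named keratinocyte groups and 6 types of other cells stayed within their counting spread under every alternative run, but those of companion layer-like (-0.01 to 0.15), melanocyte-like (-0.10 to 0.22) and pericyte or smooth muscle-like cells (-0.50 to 0.13) crossed 0. No paired analysis was possible because each genotype has 1 library and no result comes from a test, and for the same reason no replicate could be left out. The medians of the unnamed groups were not run under these alternatives. Members under 5 CPM have intervals too wide to order within groups.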

Other observations

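Among other isoforms of the pathway, 7 of 16 had at least 20 UMIs, 2 were higher by 0.5 (7.37% of all genes) and 1 lower (15.7%), and the median log2 ratio was 0.29. Gapdhs, the sperm-type glyceraldehyde-3-phosphate dehydrogenase, had 43 UMIs in control and 143 in Gli2EKO keratinocytes, with 5 and 54 in IFE basal-like and 14 and 70 in IFE suprabasal-like cells. Slc16a7, a high-affinity monocarboxylate transporter, was the most abundant of these, at 167 and 89.0 CPM (-0.91, interval -0.97 to -0.85). Its level was highest in unnamed group 9 (875 and 772 CPM, ratio -0.18) and lower ORS-like cells (410.1 and 342 CPM, ratio -0.26). The ratio was -0.41 in unnamed group 7, -0.17 in matrix/progenitor-like and -1.05 in upper follicle-like cells (80.2 and 38.7 CPM). The pooled ratio was thus larger in size than those of its richest groups, and group 9 held 202 control and 85 Gli2EKO cells. Emb, a chaperone that carries monocarboxylate transporters to the membrane, was at 47.4 and 133 CPM in lower ORS-like cells and at 5.91 and 48.9 CPM in companion layer-like cells, where the members' sum did not separate.

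Of the 7 gluconeogenesis genes, 6 had 20 or more UMIs, with a median of -0.12. Fbp1, the fructose-1,6-bisphosphatase that opposes phosphofructokinase, was at 13.8 and 11.5 CPM over all keratinocytes, yet differed in both directions between groups. IFE suprabasal-like cells had 303 UMIs in the control and 51 in Gli2EKO (63.8 and 8.43 CPM, ratio -2.92, interval -3.38 to -2.49). Unnamed group 10 had 3 and 100 UMIs (1.52 and 147 CPM, ratio 6.60, interval 5.01 to 8.90). The members' sum was lower in that group, and whether this is linked to Fbp1 was not tested. IRS-like cells had 77.5 and 116 CPM. The difference between these groups was not tested.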
